A study of Mus musculus with 11 samples.

Results

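Mature microRNAs (miRNAs) of virtual memory (VM) and true naive (TN) CD8+ T cells were compared in mice labelled dirty, with 3 Dirty_VM and 3 Dirty_TN libraries, which are 6 of the 11 libraries in the series. The libraries were taken by their titles, and every miRNA row of the count table entered the comparison. All 6 came from spleen. CD8+ cells were enriched on CD8a microbeads and sorted as CD4- CD8+ CD49dlo GFP+, and CD44 then divided them into a CD44hi fraction called stamped VM and a CD44lo fraction called stamped TN. The labels define neither dirty nor stamped and do not say what drives GFP, and they give no strain or age. Both groups carry the GFP gate, so the comparison is within GFP+ cells. Post-sort purity was above 95%, 10000 cells went into each RNA extraction, and 60 to 100 ng of RNA entered library preparation, which kept inserts of 18 to 35 bp. The labels do not say that replicates were separate animals, so the p-values measure the spread between these libraries, which may be technical. The question was which miRNAs differ between the CD44hi and the CD44lo cells of this environment. The clean libraries (3 Clean_VM and 2 Clean_TN) entered the same model, where they add to the estimate of the spread between replicates, and served to ask whether the same difference was measured there.

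A miRNA is cut from a hairpin transcript as a duplex, and 1 strand, named 5p or 3p after its side of the hairpin, is usually loaded into an Argonaute protein while the partner is lost. Bases 2 to 8 of the loaded strand, the seed, pair with messenger RNAs and lower their translation and stability, so miRNAs that share a seed share many targets. VM cells are memory-phenotype CD8+ T cells that arise without contact with foreign antigen, under self-peptide and cytokine signals such as IL-15. In T cells the miRNA set changes on leaving the naive state: miR-21, miR-146a and miR-221/222 are known to be induced by activation, and miR-181a is known to set the strength of antigen receptor signalling during thymic development.

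The mature sequences below are those of the miRNAs on which the results turn, with the seed in capitals. They are RefSeq sequences (GRCm38.p6), written 5′ to 3′, and 44 of the 64 miRNA names that passed the test had an entry. The first set was higher in VM cells and the second lower.
miR-21a-5p: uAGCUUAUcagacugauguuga
miR-139-5p: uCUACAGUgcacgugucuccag
miR-139-3p: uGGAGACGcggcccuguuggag
miR-30a-5p: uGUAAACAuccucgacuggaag
miR-30a-3p: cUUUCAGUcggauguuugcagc
miR-30c-5p: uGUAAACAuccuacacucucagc
miR-30c-2-3p: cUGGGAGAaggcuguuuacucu
miR-504-5p: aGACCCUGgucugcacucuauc
miR-146a-5p: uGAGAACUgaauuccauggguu
miR-221-3p: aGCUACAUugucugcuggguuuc
miR-222-3p: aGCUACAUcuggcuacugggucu
miR-181a-5p: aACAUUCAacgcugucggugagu
miR-181b-5p: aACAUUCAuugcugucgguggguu
miR-181a-1-3p: aCCAUCGAccguugauuguacc
miR-181a-2-3p: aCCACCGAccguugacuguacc
miR-125a-5p: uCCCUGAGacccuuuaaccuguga
miR-99b-5p: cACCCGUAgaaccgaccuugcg
miR-211-5p: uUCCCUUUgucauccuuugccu
miR-132-3p: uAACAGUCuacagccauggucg
Seeds shared between lines are those of miR-30a-5p with miR-30c-5p, miR-221-3p with miR-222-3p, and miR-181a-5p with miR-181b-5p. miR-181a-5p and miR-181b-5p match at 20 positions counted from the 5′ end, and miR-221-3p and miR-222-3p at 11.

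Total estimated counts ran from 3621364 to 10945831 in Dirty_TN and from 2614396 to 16312004 in Dirty_VM, so that a count of 0 allows a level of up to 0.184 to 1.147 CPM (counts-per-million, with 3 counts as the floor, for counting error only). CPM values were scaled by trimmed mean of M-values (TMM) and do not sum to the same total in each library; shares of a library are given as percentages. Dirty_TN replicate 3 stood apart from the other Dirty_TN libraries in 32 of the 266 more abundant rows, against 12 and 8 rows for replicates 1 and 2. A row was counted where the library lay outside the range of the others and at least 1 log2 unit from their mean. That distance also had to exceed the gap between those others. In Dirty_VM the numbers of such rows were 3, 15 and 5. No library pair agreed within counting noise, so none was counted as a duplicate.

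VM cells of dirty mice differed from TN cells in 66 of 545 rows tested, 34 higher and 32 lower. The test was edgeR's quasi-likelihood test at a Benjamini-Hochberg adjusted p under 0.05, and the rows called made up 12.1% of those tested (6.24% higher, 5.87% lower). The 66 rows carried 64 miRNA names, and 136 rows had an unadjusted p under 0.05. In 166 rows, 30.5% of all, the 3 VM libraries did not overlap the 3 TN libraries, and all 66 called rows were among them. The median log2 change over all rows was 0.02, with quartiles at -0.44 and 0.51. A fit to the 6 dirty libraries alone, with 4 residual degrees of freedom in place of 7, called 45. Without Dirty_VM replicate 3 the number called was 41, and 34 of the 66 calls were kept whichever dirty library was left out. At the edge of the threshold, miR-181b-1-3p, miR-30c-5p and miR-24-3p had adjusted p-values of 0.0463, 0.0475 and 0.048, and miR-677-5p, miR-429-3p and miR-5121 lay just outside at 0.0524, 0.0628 and 0.0672.

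**Figure D1:**
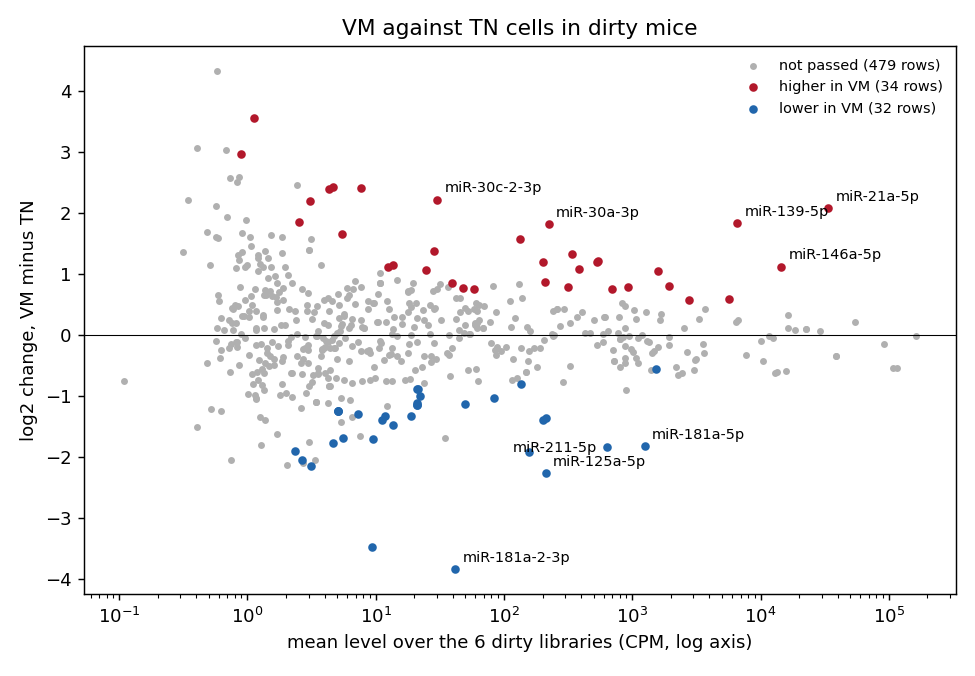
Mean level of each of 545 rows over the 6 dirty libraries (x axis, CPM on a log scale) against its log2 change, VM minus TN (y axis); red rows were higher, blue lower and grey did not pass. miR-21a-5p stands at the right edge of the rows called, near 33633 CPM, and miR-181a-2-3p is the lowest point at -3.84.

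Rows called higher were the more abundant, with a median level of 168 CPM against 21.1 CPM for those called lower and 8.99 CPM for all rows tested. Summed over the rows called higher, Dirty_TN libraries held 35674, 37469 and 38489 CPM and Dirty_VM libraries 98726, 109101 and 109541. The rows called lower summed to 7073, 6916 and 6169 CPM in Dirty_TN and 2784, 2562 and 2961 in Dirty_VM. Both sums are read from rows chosen by this same contrast and describe sizes only.

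miR-21a-5p, a miRNA induced by T cell activation that represses Pdcd4, made up most of the gain. Its level was 11907, 11901 and 14751 CPM in the TN libraries and 54957, 49164 and 59118 CPM in the VM libraries. The lowest VM library was thus far above the highest TN library. The log2 change was 2.08 ± 0.17 (SE), a 4.23-fold rise, with the smallest adjusted p of all rows (9.4e-06). As a share of each library it went from 0.986%, 1.14% and 1.66% to 5.97%, 4.58% and 6.03%, and by mean share it moved from rank 13 in TN to rank 6 in VM. Its hairpin lies in an exon of Vmp1 (chr11:86584067-86584158, minus strand). The partner arm miR-21a-3p was scarce but moved alike, from 0.865 to 2.11 CPM in TN to between 5.65 and 11.5 CPM in VM (log2 change 2.42 ± 0.47, adjusted p = 0.00486). miR-21b and miR-21c were also called higher, but they match miR-21a-5p at 18 and 16 positions and stood at no more than 0.0319% of its level, so their reads cannot be told apart from variants of miR-21a-5p.

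Some other miRNAs of the activation and memory list rose with it. Of 13 tested members, 5 rose (miR-21a-5p among them), 1 fell and 7 did not pass, with a median log2 change of 0.29. Over all rows tested, 6.24% were called higher. The list's counts were the same whichever dirty library was left out, while its median ranged from 0.1 to 0.43. The list was chosen with earlier results of these data known, and those fits share most libraries, so neither is separate support. miR-146a-5p, which damps NF-kB signalling through Traf6 and Irak1, stood at 9147, 9931 and 8443 CPM in TN and 16278, 26298 and 17154 CPM in VM. No VM library overlapped the TN range, and replicate 2 was the highest. Its log2 change was 1.12 ± 0.22 (adjusted p = 0.00476). miR-96-5p, a repressor of Foxo family messages, stood at 8.22, 8.08 and 9.1 CPM in TN and 18.1, 17.7 and 20.6 CPM in VM. The groups were separate, and it rose by 1.15 ± 0.23 (adjusted p = 0.00489). Its cluster partners did not follow: miR-182-5p, from 267 to 726 CPM in TN and from 367 to 535 in VM, had a log2 change of 0.04 ± 0.3, and miR-183-5p one of 0.02 ± 0.35.

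miR-221-3p and miR-222-3p, which share a seed, repress the cell cycle inhibitor Cdkn1b and come from adjacent hairpins on chromosome X (chrX:19146294-19146971), both rose. miR-221-3p stood at 167, 240 and 334 CPM in TN and 536, 456 and 586 CPM in VM. The groups were separate, although TN replicate 3 came nearest. Its log2 change was 1.09 ± 0.24 (adjusted p = 0.00911). miR-222-3p went from 153, 155 and 137 CPM to 224, 285 and 302 CPM (0.87 ± 0.18, adjusted p = 0.00603). Neither 5p partner passed. The remaining members of the list that did not pass included miR-155-5p, which effector CD8+ T cells need, at 1369, 1652 and 1449 CPM in TN and 1533, 1968 and 1819 in VM (0.25 ± 0.2, adjusted p = 0.487). The groups overlapped there. miR-31-5p did not pass (1.02 ± 0.45, adjusted p = 0.178) and stood at 3.46 to 19.3 CPM.

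Among 13 miRNAs known from resting lymphocytes, only the 2 arms of miR-139 passed, both higher, and the list's median was -0.14. The 2 arms come from 1 hairpin, and 12.1% of all rows tested were called, so the count says little about the list. Without Dirty_VM replicate 2 or 3 only 1 arm passed, and 1 member was called lower without Dirty_VM replicate 2, without Dirty_TN replicate 3 and by DESeq2. miR-139-5p stood at 2901, 2866 and 2861 CPM in TN and 8859, 10879 and 11136 CPM in VM. The TN libraries nearly coincided and every VM library was far above them. The log2 change was 1.84 ± 0.16 (adjusted p = 1.2e-05). miR-139-3p went from 279, 214 and 93.1 CPM to 331, 611 and 525 CPM (1.33 ± 0.33, adjusted p = 0.0188), a narrow gap between TN replicate 1 and VM replicate 1. The hairpin lies in an intron of the phosphodiesterase gene Pde2a (chr7:101475376-101475443). The main lymphocyte miRNA miR-150-5p, which represses Myb, did not pass, at 66249, 90255 and 129817 CPM in TN and 86954, 78904 and 94645 CPM in VM (-0.14 ± 0.22, adjusted p = 0.768). The TN range enclosed the VM range, with TN replicate 3 the highest. miR-342-3p (-0.15 ± 0.27) and miR-142a-3p (-0.2 ± 0.18) did not pass, nor did miR-101a-3p (-0.9 ± 0.31, adjusted p = 0.0846), which was lower in every VM library.

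**Figure D2:**
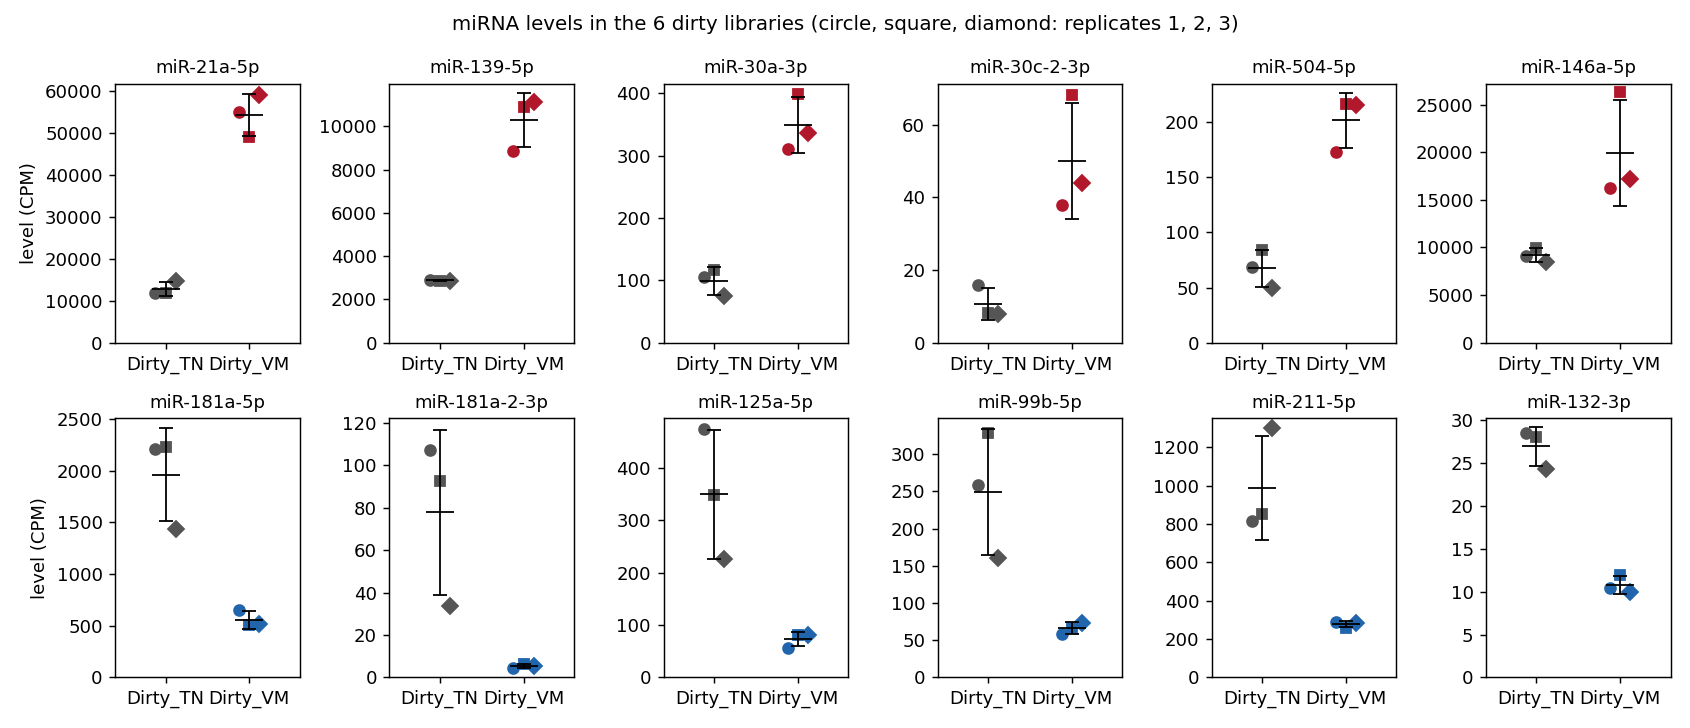
Level (y axis, CPM from 0) of 12 miRNAs in each dirty library, TN in grey and VM in red (higher) or blue (lower), with the mean and SD over 3 libraries as a black bar. In each panel the VM points lie clear of the TN points. Dirty_TN replicate 3 (grey diamond) is the highest TN library for miR-21a-5p and miR-211-5p. It is the lowest in every other panel, narrowly for miR-139-5p and miR-30c-2-3p.

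In the miR-30 family 4 of 11 tested members rose, against 6.24% of all rows tested, and none fell. The family's median log2 change was 0.27. Without Dirty_TN replicate 1 or 2, or Dirty_VM replicate 2, only 2 rose. In addition 1 member was called lower without Dirty_TN replicate 3, without Dirty_VM replicate 2 and by DESeq2, and the median was 0.09 without Dirty_TN replicate 1. Those kept in every case were the 3p arms of 2 hairpins on chromosome 1, miR-30a (chr1:23272269-23272339) and miR-30c-2 (chr1:23291701-23291784). miR-30a-3p stood at 106, 117 and 74.4 CPM in TN and 311, 399 and 336 CPM in VM (1.82 ± 0.21, adjusted p = 1.2e-04). miR-30c-2-3p went from 15.8, 8.08 and 7.96 CPM to 37.8, 68.2 and 44.0 CPM (2.22 ± 0.3, adjusted p = 2.7e-04). Every VM library was above every TN library for both. miR-30a-5p went from 412, 291 and 272 CPM to 600, 1162 and 496 CPM, the highest being VM replicate 2. It rose by 1.21 ± 0.35 (adjusted p = 0.0365) and lost its call in 4 of the 6 fits that left out a dirty library. miR-30c-5p, counted alike for 2 hairpins, rose by 0.59 ± 0.18 (adjusted p = 0.0475), and its call was lost in 5 of those 6. The hairpin miR-30c-1 also makes miR-30c-5p, and its own partner arm miR-30c-1-3p had a log2 change of 0.17 ± 0.19. miR-30d-5p, the most abundant member (10716 to 24478 CPM), had -0.59 ± 0.22 and miR-30e-5p -0.57 ± 0.27, and neither passed.

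Further miRNAs rose outside these lists. miR-504-5p, from an Fgf13 intron on the X chromosome (chrX:59097658-59097736), stood at 68.4, 83.6 and 49.9 CPM in TN and 173, 216 and 215 CPM in VM (1.58 ± 0.21, adjusted p = 2.7e-04). miR-149-5p, from an intron of the glypican gene Gpc1, went from 123, 128 and 114 CPM to 223, 283 and 333 CPM (1.2 ± 0.19, adjusted p = 8.8e-04). The groups were separate in both, and the TN libraries of miR-149-5p were close together. miR-421-3p (1.07 ± 0.23) and miR-374b-5p (1.05 ± 0.23), neighbours within the noncoding gene Ftx (chrX:103572921-103573154), rose together. miR-374b-5p stood at 731, 1383 and 994 CPM in TN and 1968, 2382 and 2082 CPM in VM. miR-1949 rose by 1.38 ± 0.27. miR-130b-5p (1.2 ± 0.34, adjusted p = 0.0327) and miR-29c-3p (1.11 ± 0.31, adjusted p = 0.0327), the latter of a family that represses Tbx21, Eomes and Ifng, rose too, but lost their calls in 3 and 5 of the 6 fits without a dirty library. The more abundant miR-29a-3p (2446 to 3962 CPM) had 0.26 ± 0.19 and did not pass. miR-10a-5p, from the Hoxb cluster, rose by 0.75 ± 0.18 from 47.0, 42.1 and 42.1 to 77.7, 73.1 and 69.8 CPM, and lost its call in 4 of those 6 fits. miR-10b-5p, which shares its seed, had a log2 change of -0.00 ± 0.36.

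Calls at the lowest levels rest on few reads: 19 of the 66 called rows had a mean under 10 CPM. miR-598-3p stood between 0.0813 and 0.288 CPM in TN and between 1.32 and 1.79 CPM in VM, and lost its call whichever dirty library was left out. miR-7683-5p stood at no more than 0.257 CPM in TN and between 1.64 and 2.98 CPM in VM, and kept its call each time. Its TN values lay below 0.274 CPM, the lowest 3-count floor of the Dirty_TN libraries. The fits share these few counts, so the kept call is no separate support.

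The miR-181 family held the largest fall by log2 change among the rows called, that of miR-181a-2-3p. Of 9 tested family members and partner arms 5 fell, against 5.87% of all rows tested, and none rose. The median log2 change was -1.13, and between 4 and 6 members fell when a dirty library was left out. miR-181a-5p stood at 2212, 2223 and 1439 CPM in TN and 652, 503 and 513 CPM in VM. The nearest libraries were TN replicate 3 and VM replicate 1, still well apart. The log2 change was -1.82 ± 0.21 (adjusted p = 1.2e-04), a 3.52-fold lower level, on 1 row counted alike for 2 hairpins. miR-181b-5p, on separate rows for its hairpins on chromosomes 1 and 2, fell by 1.39 ± 0.18 and 1.36 ± 0.18 (adjusted p = 2.2e-04 and 2.4e-04). On the first row it stood at 313, 308 and 253 CPM in TN and 124, 104 and 105 CPM in VM. The second row held nearly the same values, 324, 320 and 266 CPM in TN and 133, 109 and 112 CPM in VM. Both rows are the same mature miRNA, so they are not separate evidence of a fall at each hairpin.

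The partner arms of miR-181a told its 2 hairpins apart. miR-181a-2-3p, from chr2:38852735-38852810, stood at 107, 92.3 and 33.8 CPM in TN and 4.46, 6.57 and 5.29 CPM in VM. It fell by 3.84 ± 0.46 (adjusted p = 1.3e-04), 14.4-fold, with TN replicate 3 far below the other TN libraries but above all VM libraries. Without that library the fall was 4.21. miR-181a-1-3p, from chr1:137966455-137966541, went from 61.2, 71.5 and 72.5 CPM to 35.1, 27.1 and 31.4 CPM and fell by 1.13 ± 0.19 (adjusted p = 0.0017). The difference between the 2 arms' changes was not tested. miR-181b-1-3p also fell (1.9 ± 0.57, adjusted p = 0.0463) at 0.721 to 4.61 CPM, a call kept in only 1 of the 6 fits without a dirty library. miR-181c-5p (-0.55 ± 0.26) and miR-181d-5p (0.04 ± 0.19, 337 to 500 CPM), which have the same seed but lie on chromosome 8, did not pass. Without Dirty_TN replicate 3, miR-181c-5p was called lower by the same edgeR test (-0.79, adjusted p = 0.0285). Differences between family members were not tested.

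miR-99b-5p and miR-125a-5p, whose hairpins lie side by side with let-7e in Spaca6 (chr17:17830188-17830879), fell together. Among miRNAs of the miR-99 and miR-125 loci, with their let-7 neighbours, 2 of 9 tested fell and none rose. Of all rows tested, 5.87% were called lower. The list's median was -0.77. Without Dirty_TN replicate 3 or Dirty_VM replicate 2, 4 fell. miR-125a-5p, of a family known to favour the undifferentiated state of haematopoietic cells, stood at 474, 349 and 227 CPM in TN and 57.1, 81.8 and 80.2 CPM in VM. The fall was 2.26 ± 0.28 log2 units (adjusted p = 1.6e-04). miR-99b-5p, of a family that targets Mtor, went from 259, 329 and 160 CPM to 58.3, 66.6 and 73.8 CPM and fell by 1.91 ± 0.26 (adjusted p = 2.7e-04). In both, TN replicate 3 was the lowest TN library and still well above the highest VM library. let-7e-5p of the same locus had -0.77 ± 0.26 (adjusted p = 0.0788). None of the seed partners from other loci passed. miR-99a-5p stood at 0.47 ± 0.4, miR-100-5p at 0.38 ± 0.33 and miR-125b-5p at 0.44 ± 0.39, while miR-351-5p, which shares the seed of miR-125a-5p, stood at -1.17 ± 0.46 (adjusted p = 0.127).

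miR-211-5p, best known from melanocytes and encoded in an intron of Trpm1 (chr7:64205806-64205911), stood at 815, 851 and 1299 CPM in TN and 290, 259 and 286 CPM in VM. It fell by 1.83 ± 0.22 (adjusted p = 1.3e-04), and the VM libraries were close together. Its arm miR-211-3p fell by 1.77 ± 0.46 at 1.49 to 9.23 CPM, a call lost in 3 of the 6 fits without a dirty library. miR-204-5p, which matches miR-211-5p at 21 of 22 positions and stood at 0.205% to 0.712% of its level, was called lower as well, and its reads cannot be told apart from variants of miR-211-5p.

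miR-132-3p and miR-132-5p, arms of a hairpin driven by CREB in neurons and listed among activation miRNAs, both fell. miR-132-3p stood at 28.5, 28.0 and 24.3 CPM in TN and 10.4, 11.9 and 9.91 CPM in VM (-1.33 ± 0.23, adjusted p = 0.00199), with no overlap. miR-132-5p fell by 1.69 ± 0.34 (adjusted p = 0.00603), and miR-212-5p of the same cluster had -1.75 ± 0.62 (adjusted p = 0.0931). Of the clusters of miR-23, miR-27 and miR-24, all 11 tested members had log2 changes below 0 (-0.05 to -0.81). Of these 2 passed, beside 12.1% of all rows tested. Without Dirty_TN replicate 1, 2 of the 11 were above 0, and by library totals or on summed rows 1 was. miR-24-3p went from 1876, 1699 and 1840 CPM to 1156, 1085 and 1461 CPM (-0.55 ± 0.17, adjusted p = 0.048), and miR-24-2-5p fell by 0.81 ± 0.22. Neither passed without Dirty_TN replicate 2, Dirty_VM replicate 1 or Dirty_VM replicate 2. miR-542-3p, 1 of 9 tested members of the X-linked cluster of miR-322, miR-503 and miR-450, fell by 3.47 ± 0.62 (adjusted p = 0.00244). It stood at 32.4, 12.1 and 6.75 CPM in TN, a wide spread, and 0.892, 2.47 and 1.44 CPM in VM. Of that cluster 3 members were called lower without Dirty_VM replicate 1 and 2 without Dirty_TN replicate 3.

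**Figure D3:**
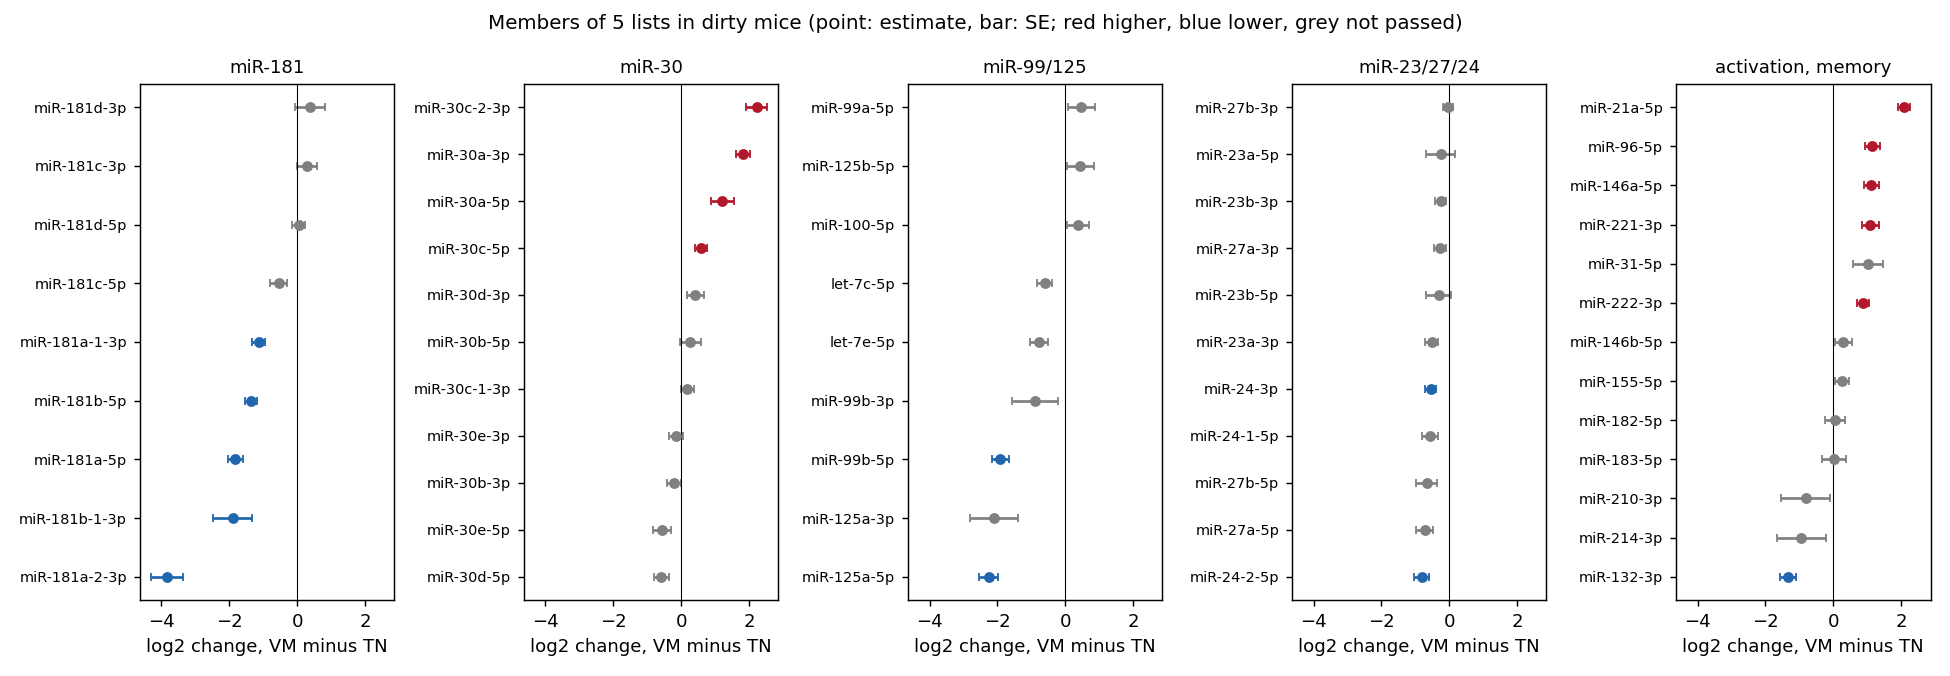
Log2 change, VM minus TN in dirty mice (x axis), with its SE as a bar, for the tested members of 5 lists; red members rose, blue fell and grey did not pass. Members of a list had different estimates, and the differences between members were not tested. miR-181a-5p and miR-181b-5p lie at -1.36 or below, while miR-181c-5p and miR-181d-5p lie at -0.55 and 0.04. miR-99b-5p and miR-125a-5p lie apart from miR-99a-5p, miR-100-5p and miR-125b-5p, and let-7e-5p of their locus lies between, at -0.77.

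The rodent-specific families miR-297, miR-466, miR-467 and miR-669, best known as a large repeat-rich cluster in an intron of the Polycomb gene Sfmbt2 on chromosome 2, were lower where they changed. Of the 50 rows tested, 45 lay on chromosome 2. In all, 16 rows of 15 names fell and none rose. Taking each name by its most abundant row, 14 of 46 fell, against 5.87% of all rows tested, and the list's median was -0.67. All 16 were 3p arms, out of 27 3p rows tested, with a median log2 change of -1.1, and none of 21 5p rows passed (median -0.25). Of the 16, all 15 with a position lay on chromosome 2. miR-466d-3p, the highest single row of the 16, stood at 111, 131 and 94.3 CPM in TN and 53.3, 59.2 and 51.2 CPM in VM (-1.04 ± 0.22, adjusted p = 0.0072). The rows of miR-669a-3p and miR-467a-3p each stand for several hairpins (11 and 10), so the order of levels by miRNA may differ. miR-669f-3p went from 26.9, 31.7 and 27.6 CPM to 11.6, 16.8 and 11.6 CPM (-1.12 ± 0.28, adjusted p = 0.0188), while miR-669f-5p stood at 0.771 to 3.27 CPM and had 0.71 ± 0.61. The call of miR-669f-3p was lost without Dirty_TN replicate 2, Dirty_VM replicate 1 or Dirty_VM replicate 3, and that of miR-467e-3p without either of those VM libraries. miR-467e-3p fell by 1.48 ± 0.36, and its arm miR-467e-5p, at 142 to 238 CPM, had -0.52 ± 0.19 (adjusted p = 0.1). These rows are not independent, since several hairpins make the same or nearly the same sequence, and the 16 rows held only 13 distinct sets of values, miR-466b-3p, miR-466c-3p and miR-466p-3p being identical, and miR-669a-3p and miR-669o-3p too. The count of 14 names depended on single libraries, with 6 lower without Dirty_TN replicate 2, 4 without Dirty_VM replicate 1 and 3 without Dirty_VM replicate 3. Over the 6 fits that left out a dirty library the list's median ranged from -0.91 to -0.53.

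**Figure D4:**
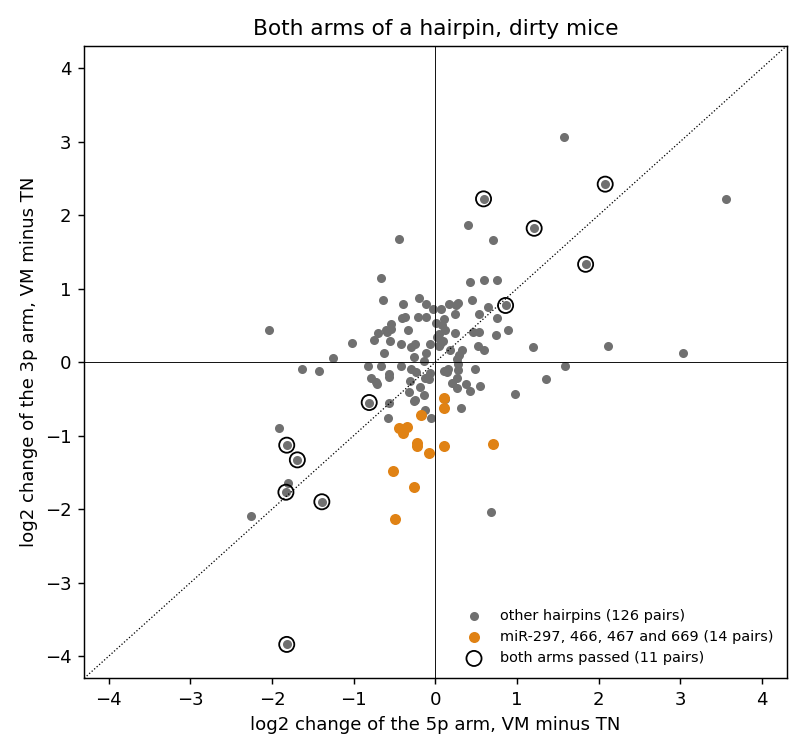
Log2 change of the 5p arm (x axis) against that of the 3p arm (y axis), VM minus TN, for 140 pairs of arms; the dotted line marks equal change, and circles mark the 11 pairs in which both arms passed. The 14 pairs of the rodent families (orange) sit below 0 on the y axis and between -0.52 and 0.71 on the x axis.

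Across all 140 pairs of arms in which both were tested, both arms passed in the same direction in 11 and in opposite directions in none. Those 11 pairs belong to the hairpins of miR-21a, miR-139, miR-30a, miR-30c-2, miR-3068, miR-132, miR-211, both miR-181a hairpins, miR-181b-1 and miR-24-2. The arms miR-181a-5p, miR-30c-5p and miR-24-3p are each 1 row counted alike for 2 hairpins and cannot be assigned to 1 of them. miR-181a-5p enters the pairs of both miR-181a hairpins. In 24 pairs 1 arm passed, and in 19 of those the other had the same sign. Over all 140 pairs the arms had the same sign in 88. The arms of a hairpin are not independent, since they come from the same transcript. miR-15b is 1 of the hairpins whose arms differed in sign: miR-15b-3p rose from 497, 780 and 749 CPM to 1260, 1104 and 1148 CPM (0.79 ± 0.22, adjusted p = 0.0317), and miR-15b-5p had -0.12 ± 0.2. Arms named 3p made up 44.1% of the names called higher, 73.3% of those called lower and 44.7% of all names tested. Of the 22 3p names called lower, 15 belong to the rodent families, and outside them 7 of 15 lower names were 3p arms. The call of miR-15b-3p was lost in 4 of the 6 fits without a dirty library.

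No member passed in several lists of abundant or clustered miRNAs. As 12.1% of all rows tested were called, a list of 5 or 6 members without a call says little. In the let-7 family, which opposes growth and proliferation and is the largest share of these libraries, none of 9 members passed, with a median of -0.34. let-7f-5p held 29.1%, 26.4% and 19.0% of the counts in TN and 18.3% ± 1.55 (SD, n = 3) in VM. TN replicate 3 lay within the VM range, and without that library 5 members were called lower, with a list median of -0.58. Without Dirty_VM replicate 2, and also by DESeq2, the number was 2. None of 15 members of the miR-17-92 cluster and its paralogs passed (median -0.05), and miR-92a-3p, at 5.73%, 6.22% and 5.43% of the counts in TN, held 6.27%, 7.24% and 7.16% in VM. None passed among 6 members of the miR-15 and miR-16 family (median -0.22), 5 relatives of miR-148 (0.41), 6 of the cluster of miR-532, miR-500 and miR-362 (-0.21) and 14 of the imprinted Dlk1-Dio3 cluster (0.53). At an unadjusted p under 0.05 stood 3 members of let-7, 1 of miR-17-92 and 1 of miR-15 and miR-16, and none of the others. DESeq2 called none of these lists' members except in let-7, and limma-voom none at all. Without Dirty_TN replicate 3, 1 Dlk1-Dio3 miRNA was called higher, and over the fits without a dirty library the median of that list ranged from 0.14 to 0.85 and that of the miR-148 relatives from 0.05 to 0.36.

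The labelled cell type was checked on its miRNAs. The 6 lymphocyte markers were all present and summed to 77505 to 143424 CPM in TN and 88869 to 103701 CPM in VM, with miR-181a-5p the only one that passed. The myeloid miR-223-3p stood at 0.257 to 1.54 CPM in TN and 1.64 to 2.08 CPM in VM (0.94 ± 0.8, adjusted p = 0.528). Of 4 tested erythroid miRNAs none passed, and their sum was 69.2 to 147.5 CPM in TN and 122.0 to 199.8 CPM in VM, with miR-144-3p at 0 counts in 4 of the 6 libraries. miR-486a-3p, the partner arm of the listed erythroid miR-486a-5p and itself not on the list, was called higher (1.86 ± 0.44, adjusted p = 0.0145). It stood at 1.16, 1.44 and 0.813 CPM in TN and 2.38, 4.11 and 5.29 CPM in VM, and lost its call without Dirty_VM replicate 3. miR-486a-5p, at 27.7 to 66.2 CPM in TN and 45.8 to 83.5 CPM in VM, had 0.4 ± 0.35. No member passed of 2 endothelial (15.3 to 29.7 CPM in TN, 29.6 to 53.0 in VM), 7 stromal (91.1 to 139.5 and 115.5 to 195.2 CPM) and 4 hepatocyte and muscle miRNAs (928.4 to 1835.5 and 1248.3 to 2488.8 CPM, nearly all of it miR-122-5p). Of 8 epithelial miRNAs, which summed to 2285.5 to 3183.3 CPM in TN and 2760.6 to 3758.5 CPM in VM, miR-200a-3p rose from 232, 233 and 235 CPM to 400, 362 and 448 CPM (0.79 ± 0.18, adjusted p = 0.00911), a call lost without Dirty_TN replicate 1 or Dirty_VM replicate 3. miR-200b-3p, miR-200c-3p and miR-203-3p did not pass. Whether other cells contributed to any result was not tested. In sorted bulk RNA, fewer cells of a type and less RNA per cell cannot be told apart.

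The difference between VM and TN cells was set beside the same difference in clean mice, where 95 rows were called, 17.4% of those tested. Of the 66 rows called in dirty mice, 36 were called in the same direction in clean mice, which is 54.5% of the dirty and 37.9% of the clean calls, and none in the opposite direction. Of the 34 rows called higher, 30 had a log2 change above 0 in clean mice, and of the 32 called lower, 31 had one below 0. Over all 545 rows, 352 had the same sign in both environments. The changes in the 2 environments had a Pearson's r of 0.46 and a Spearman's rho of 0.41 over the 545 rows, as a description across miRNAs that are not independent replicates. The clean fit rests on 2 TN libraries, and its count was 23, 28 and 56 without Clean_TN replicate 2, Clean_TN replicate 3 and Clean_VM replicate 2.

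The test of the difference itself, the interaction of subset and environment, called no row (edgeR, smallest adjusted p = 0.0935), with 93 rows at an unadjusted p under 0.05. By limma-voom it called 0 and by DESeq2 41. The 3 rows with the smallest p were miR-361-3p, miR-148a-3p and miR-1291, none of which passed in dirty mice: their log2 changes there were 0.53 ± 0.18, -0.1 ± 0.28 and 0.84 ± 0.29, against -0.79, 1.95 and -1.06 in clean mice. miR-182-5p and miR-183-5p, near 0 in dirty mice, had 1.79 and 2.19 in clean mice, and their interactions were -1.75 ± 0.45 (adjusted p = 0.0952) and -2.17 ± 0.54 (adjusted p = 0.095). Among the 66 rows the smallest adjusted interaction p was 0.102. miR-221-3p had 1.09 in dirty and -0.21 in clean mice, an interaction of 1.3 ± 0.36 (adjusted p = 0.102). miR-30c-5p had 0.59 and -0.35, and its interaction was 0.95 ± 0.27 (adjusted p = 0.11). miR-181a-2-3p fell by 3.84 in dirty mice and by 1.56 in clean mice, with an interaction of -2.29 ± 0.63 (adjusted p = 0.102). The result depended on Dirty_TN replicate 3, without which 60 rows passed the interaction test, and 10 of them were rows called in dirty mice. In that fit miR-221-3p had 1.59 ± 0.3 (adjusted p = 0.00507), miR-30c-5p 1.1 ± 0.23 (adjusted p = 0.00919), miR-181a-2-3p -2.65 ± 0.48 (adjusted p = 0.0034) and miR-139-3p -2.05 ± 0.35 (adjusted p = 0.00245). Without Clean_VM replicate 1, 1 row passed.

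**Figure D5:**
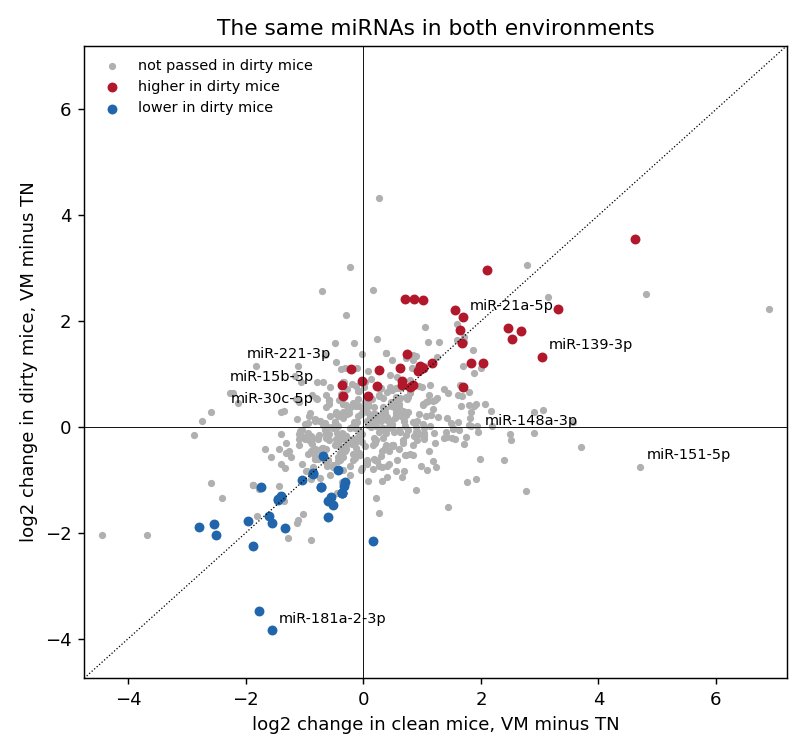
Log2 change, VM minus TN, in clean mice (x axis) against dirty mice (y axis) for 545 rows; red and blue rows were called higher and lower in dirty mice, and the dotted line marks equal change. Most called rows lie in the quadrants of equal sign, as do 352 of all 545 rows. miR-221-3p, miR-15b-3p and miR-30c-5p lie above 0 in dirty and below 0 in clean mice.

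The side-by-side values of the leading miRNAs were close for some and not for others. On the log2 scale, miR-139-5p rose by 1.84 in dirty and 1.64 in clean mice, miR-504-5p by 1.58 and 1.68, miR-149-5p by 1.2 and 1.17 and miR-146a-5p by 1.12 and 1.01. miR-181b-5p fell by 1.39 and 1.46, and miR-132-3p by 1.33 and 1.4. Further apart were miR-139-3p, at 1.33 in dirty and 3.04 in clean mice, miR-30c-2-3p at 2.22 and 3.31, miR-30a-3p at 1.82 and 2.68, and miR-211-5p at -1.83 and -2.55. For the rodent families the median change was -0.67 in dirty and -0.58 in clean mice, but of the 16 rows called lower in dirty mice only 2, both of miR-466f-3p, were called in clean mice. miR-466n-3p had -2.15 in dirty and 0.17 in clean mice, miR-467c-3p -1.7 and -0.61, and miR-466d-3p -1.04 and -0.32. None of these differences passed the interaction test in the main edgeR fit to all libraries, which does not show that the changes were equal. With all libraries, DESeq2 called 41 rows, edgeR without a filter 30 and edgeR with a minimum of 10 CPM in 2 libraries 16.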

How the data were processed

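The authors deposited 1 table of estimated counts per mature miRNA and hairpin for 11 libraries, and the submitters' processing notes name the build mm10. The estimated counts, as deposited by the authors, are per row and not normalized. The aligner, the counter and the handling of reads that match several hairpins are not given in the sources used here. Of the deposited values 89.6% were whole (within 1e-06). The table had 2128 rows of 1978 names. Rows with the same name and identical counts were kept once, which removed 120 rows (0.97% of the dirty libraries' counts) and left 2008, of which 1090 had a count in a dirty library. A mature sequence made by several hairpins can therefore be spread over rows, and shares of a library use sums over all rows of a name.

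Counts were rounded, and rows were filtered with edgeR's filterByExpr over the 4 groups, leaving 545. One quasi-likelihood model (edgeR 4.0.16 in R 4.3.3, TMM scaling, robust) was fitted to all 11 libraries with 1 mean per group. Contrasts were Dirty_VM minus Dirty_TN, the same in clean mice, and their difference. P-values were two-sided and adjusted by Benjamini-Hochberg over 545 rows, with a threshold of 0.05. Each SE was taken as |log2 change| over the root of its F statistic. On simulated counts for the dirty comparison (545 rows), 78% of rows with a true log2 change of 2, 48% with 1 and 2% with 0 were called. Replicate numbers were not used as pairs: the deviations of same-numbered dirty libraries correlated at -0.7, 0.45 and 0.46.

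Named miRNAs were the 15 largest called increases and decreases with a mean of 10 CPM or more and no overlap, the other arms of these, the 10 most abundant miRNAs, tested members of the lists, the 3 with the smallest interaction p and the 3 on each side of the threshold. Other called rows were named after their values were seen. The members and lists were chosen with earlier results of these data known. Alternatives were DESeq2 1.42.0, limma-voom (limma 3.58.1), other scalings and filters, summed rows, a depth term or depth class, only dirty libraries, replicate blocks and each library left out. Positions are GRCm38 (mm10), from RefSeq or GENCODE M21, with host genes from GENCODE M21. RefSeq sequences matched 425 of 524 tested names.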

Additional observations from a re-analysis of the deposited data

How the results depend on the processing

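The 30 rows (29 miRNA names) were chosen for a large change and for no overlap between VM and TN in these same libraries. None reversed direction in any of 24 alternatives, but that choice made a reversal unlikely from the start, so it is no separate support. Of the 30 rows, 22 kept their call whichever dirty library was left out. In dirty mice 66 rows were called, and 88 by DESeq2, 65 by limma-voom, 66 with DESeq2's size factors, 62 by library totals and 66 without a filter. The count was 11 in the libraries over 5000000 counts alone and 17 in those under it, with 2 and 1 residual degrees of freedom, and 45 with only the 6 dirty libraries. It ranged from 41 (without Dirty_VM replicate 3) to 88 (without Dirty_TN replicate 3) when 1 library was left out. Library totals in place of TMM moved the median change of all rows by 0.09. The replicate number as a block gave 49 calls over both environments and 21 in the dirty libraries alone. Not every library correlated best with its own number, so the numbers are no evidence of pairing. For the interaction, with no call, DESeq2 gave 41, a minimum of 10 CPM in 2 libraries 16 and no filter 30, and leaving out 1 library gave 0 to 60. In clean mice, 95 calls became 23 to 113 when 1 library was left out. The cause of these moves was not tested. Depth limits the rows below 10 CPM, where a floor of 3 counts reaches 1.147 CPM.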
